A study of Mus musculus with 2 samples.

Results

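The genes examined here are 8 genes that are characteristic of mast cells and basophils: Hdc, Ms4a2, Cpa3, Fcer1a, Mcpt8, Prss34, Il1rl1 and Prg2. A gene was counted where the platform annotation gave a probe set that gene and no other, which held for 6 of the 8, with 8 probe sets among the 45101 on the array. The signals of Prss34 and Il1rl1 were not analysed here; only their promoter sequences were searched. The samples were 2 Affymetrix arrays of RNA from fetal liver cells of C57BL/6J embryos at E15.5, sorted as positive for both Mac-1 (CD11b) and F4/80. One array came from wild-type (c-Maf+/+) and one from c-Maf knockout (c-Maf-/-) embryos, and the labels give neither the number of embryos pooled nor whether all cells of the animal lacked c-Maf. The stated search was for genes with less RNA when c-Maf, a basic leucine zipper transcription factor, is missing. The array held 18193 genes with a probe set of their own.

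Mast cells and basophils are granulocytes that carry the high-affinity receptor for immunoglobulin E. That receptor is built of an alpha chain that binds the antibody (Fcer1a), a beta chain that amplifies the signal (Ms4a2) and a pair of gamma chains (Fcer1g) that are shared with other Fc receptors. Cross-linking of the receptor releases histamine and granule proteases, and GATA factors, Gata2 above all, keep the lineage's genes on. Some of these genes are not limited to these cells: Hdc is also expressed in immature myeloid cells and Prg2 in eosinophils and their precursors.

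With 1 array per genotype there was no replicate and nothing could be tested: each difference describes these 2 arrays, whose number limits the precision. In such bulk RNA, fewer cells of a type and less RNA per cell cannot be told apart. The knockout array was dimmer as a whole, with a median log2 ratio of knockout over wild type of -0.93 over the 9238 genes measured on both arrays. Ratios are therefore given as deposited and after quantile normalization, which gives both arrays the same distribution of signals and is called level-adjusted. A signal below 3.70, the median of all deposited values, was treated as not measured and raised to that floor for the ratio, so a gene below it on 1 array has only a bound. The direction of such a bound was fixed by which array passed the floor. The floor of the level-adjusted scale was 3.74. As a yardstick, log2 ratios of probe sets of the same gene differed with an SD of 0.63 as deposited and 0.64 level-adjusted (3417 probe sets of 1420 genes with a mean signal of at least 4 times the floor), which is no replicate error. The brightest probe set of Maf, the targeted gene, read 47.6 in wild type against 0.219 in knockout, but whether its probes lie in the deleted part is not known here.

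The 6 genes did not move as one block. Hdc, which makes histamine, was lower on the knockout array on both scales in its brighter probe set. Its dimmer probe set and Ms4a2 went from a low signal to below the floor, so they could only be lower. Prg2 followed the general dimming of the array. The protease genes Cpa3 and Mcpt8 were slightly dimmer as deposited and higher after level adjustment, short of 2-fold. Fcer1a was below the floor on both arrays.

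**Figure D1:**
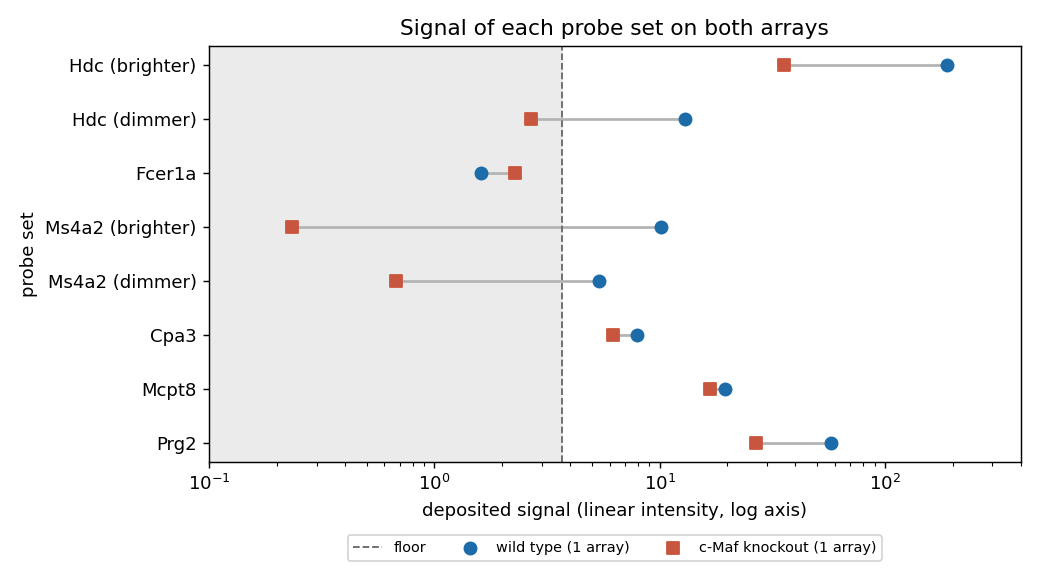
Deposited signal of the 8 probe sets on the wild-type array (circles) and the c-Maf knockout array (squares), on a log axis; the grey area lies below the floor of 3.70, and "brighter" and "dimmer" tell apart the probe sets of 1 gene. Both probe sets of Hdc and both of Ms4a2 were dimmer in knockout, and the Fcer1a probe set was below the floor on both arrays.

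Hdc encodes histidine decarboxylase, the enzyme that makes histamine from histidine. Its brighter probe set read 189.5 in wild type against 35.7 in knockout. That is 5.31-fold lower as deposited and 2.35-fold lower level-adjusted (log2 ratio -2.41 and -1.23). The signal was 9.65 times the floor in knockout, so it was still measured there. The dimmer Hdc probe set went from 12.9 to 2.69, below the floor, which makes it lower by at least 3.48-fold as deposited and by 2.52-fold or more level-adjusted. It passed the floor in wild type alone, so it could only be lower and adds no separate support. Both probe sets have the _s suffix, which marks probes that can match more than 1 transcript.

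Hdc also stood low among genes of like brightness. The genes measured on both arrays were cut into 5 equal bins by signal. In the brightest bin the median log2 ratio was -1.25 as deposited, and Hdc lay 1.16 below it. After level adjustment it lay 1.13 below the median of that bin, a distance larger than the yardstick of 0.64. Of the 1848 genes in that bin, 81, or 4.38%, had a lower level-adjusted ratio than Hdc.

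**Figure D2:**
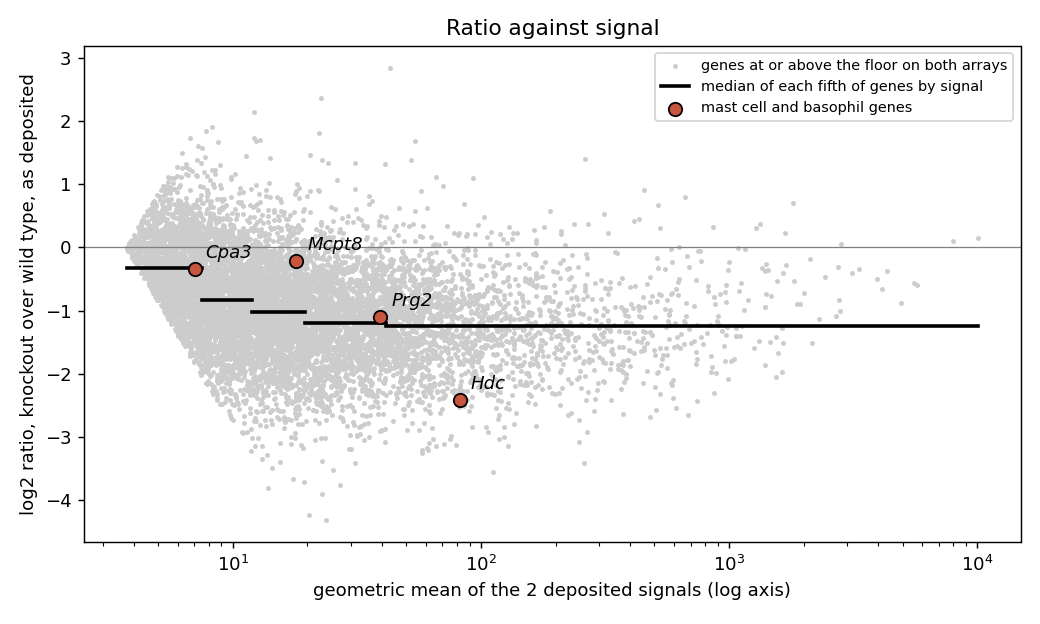
Log2 ratio of knockout over wild type, as deposited, against the geometric mean of both signals (log axis) for the 9238 genes measured on both arrays (grey), with the median of each of 5 signal bins (black lines). Hdc lay at -2.41, below the median of its bin at -1.25, Prg2 and Cpa3 lay near their lines, and Mcpt8 lay above its own at -1.03.

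Among the chains of the immunoglobulin E receptor, Ms4a2, the beta chain, read 10.2 in wild type against 0.234 in knockout in its brighter probe set. Against the floor this is a difference of at least 2.75-fold as deposited and of 2.04-fold or more level-adjusted, lower in knockout. The second probe set went from 5.38 to 0.674, lower by at least 1.45-fold as deposited and 1.13-fold level-adjusted. Both entered the comparison through their wild-type signal, which was 2.75 and 1.45 times the floor, so any ratio they could show was a lower one. The order was the same in both probe sets, but the wild-type signals were close to the floor.

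Fcer1a, the alpha chain that binds immunoglobulin E and defines this receptor, read 1.62 in wild type against 2.27 in knockout. Both are below the floor, so no ratio was taken. Fcer1g, the gamma chain, which macrophages use for their Fc receptors too, was bright on both arrays, with 90.3 in wild type against 87.7 in knockout (-0.04 as deposited and 1.12 level-adjusted, as log2 ratios). The 3 chains thus differed: 1 was not measured, 1 was measured in wild type alone, and 1 was measured on both arrays.

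Cpa3 encodes mast cell carboxypeptidase A, a granule protease that is also among the first genes of the lineage to be switched on in progenitors. Its signal was 7.90 in wild type against 6.23 in knockout, or 2.14 and 1.68 times the floor. The log2 ratio was -0.34 as deposited and 0.46 level-adjusted. Genes of the dimmest bin, to which Cpa3 belongs, had medians of -0.33 and 0.40 on the same scales, so Cpa3 did not stand apart from them.

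Mcpt8 encodes a serine protease of basophil granules in the mouse. It read 19.5 in wild type against 16.7 in knockout, a log2 ratio of -0.22 as deposited and 0.85 level-adjusted. In its signal bin the level-adjusted median was 0.01, and 88.4% of the 1848 genes had a lower ratio than Mcpt8. It was therefore the member that lay highest for its brightness, by 0.84 log2 units, and it was the opposite of Hdc in that respect.

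Prg2 encodes the major basic protein of eosinophil granules, a toxic cationic protein also found in basophils. It read 57.6 in wild type against 26.9 in knockout. It was 2.14-fold lower as deposited, and its level-adjusted log2 ratio was 0.06. In its signal bin 57.2% of genes had a lower level-adjusted ratio, so the deposited difference was that of the median gene of its brightness.

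Counted as genes, 5 of the 6 reached the floor on 1 or both arrays, Ms4a2 among them through wild type alone. As deposited, 3 of these 5 were at least 2-fold lower (Hdc, Ms4a2 and Prg2), where 39.8% of all 13479 genes measured were. Level-adjusted, 2 of 5 were at least 2-fold lower (Hdc and Ms4a2), where 8.97% of 13300 genes were. None of the 5 was at least 2-fold higher on either scale, against 1.19% of all genes as deposited and 8.41% level-adjusted. The median log2 ratio of the 5 was -1.10 as deposited and 0.06 level-adjusted, beside -0.79 and 0.01 over all genes measured. With 5 genes, 1 of them a bound, these counts are a description of the list.

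Directions rested on the scaling for 3 of the 5 genes. Hdc had a log2 ratio between -2.65 and -1.23 under every setting that gave it a value; restricting genes to probe sets without a suffix gave none. For Ms4a2 the direction was fixed by its passing the floor in wild type alone, so its range of -3.35 to -0.53 shows no stability. Floors at the 25th and 65th percentile gave -3.35 and -0.74, and centring on the median gene gave -0.53. Cpa3 and Mcpt8 were below 0 as deposited and above 0 with equal array medians, with ratios centred on the median gene and after quantile normalization. Prg2 turned only after quantile normalization, to 0.06.

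**Figure D3:**
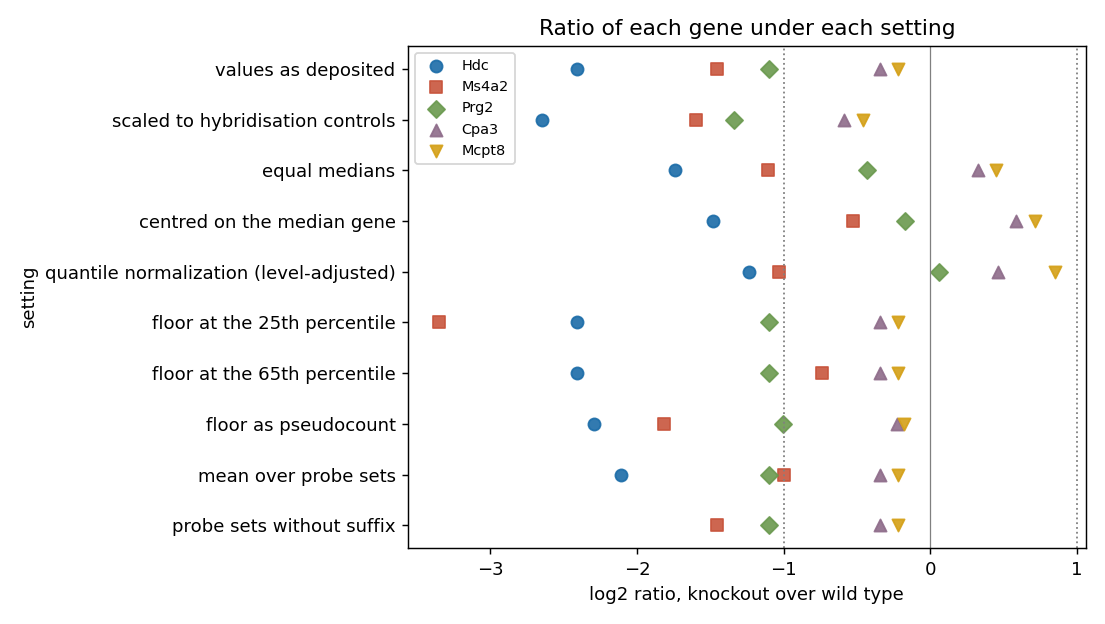
Log2 ratio of knockout over wild type for the 5 measured genes under the deposited scale and 9 other settings; dotted lines mark 2-fold, and Ms4a2 is a bound set by the floor in every setting except the pseudocount. Hdc stayed at or below -1.23 in each setting that gave it a value, while Cpa3 and Mcpt8 lay on both sides of 0.

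In the probe set that stood for the gene, Hdc and Ms4a2 were at least 2-fold lower on both scales, and Cpa3 and Mcpt8 were within 2-fold. Ms4a2 passed the floor in wild type alone, so it could only be lower, and no contrast of lower and unchanged genes is drawn. The promoters of these 4 genes are shown because GATA factors and Maf are transcription factors that read such sequence. Each is the 250 bases before the start site in RefSeq's GRCm38.p6, written 5′ to 3′ on the gene's minus strand: Hdc at chr2:126618679-126618928, Ms4a2 at chr19:11623720-11623969, Cpa3 at chr3:20242182-20242431 and Mcpt8 at chr14:56085198-56085447. Capitals mark GATA sites, which are the letters GATA after an A or T and before an A or G, on either strand. TGCTGA, a single arm of the palindromic Maf recognition element, was searched on both strands too, and these 4 windows held 0 matches.
Hdc: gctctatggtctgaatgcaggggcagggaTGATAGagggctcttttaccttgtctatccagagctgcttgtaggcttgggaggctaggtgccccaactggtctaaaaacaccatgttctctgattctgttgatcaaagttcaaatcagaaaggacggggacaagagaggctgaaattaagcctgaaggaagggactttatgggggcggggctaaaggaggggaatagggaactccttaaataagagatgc
Ms4a2: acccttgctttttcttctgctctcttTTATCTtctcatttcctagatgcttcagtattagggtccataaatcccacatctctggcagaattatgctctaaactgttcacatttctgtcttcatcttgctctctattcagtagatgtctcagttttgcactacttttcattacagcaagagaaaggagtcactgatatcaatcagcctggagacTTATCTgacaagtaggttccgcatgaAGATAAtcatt
Cpa3: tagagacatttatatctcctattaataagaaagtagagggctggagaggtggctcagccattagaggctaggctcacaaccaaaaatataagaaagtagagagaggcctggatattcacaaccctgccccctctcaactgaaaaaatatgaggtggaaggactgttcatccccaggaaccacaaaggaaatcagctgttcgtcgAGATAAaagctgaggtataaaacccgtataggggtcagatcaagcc
Mcpt8: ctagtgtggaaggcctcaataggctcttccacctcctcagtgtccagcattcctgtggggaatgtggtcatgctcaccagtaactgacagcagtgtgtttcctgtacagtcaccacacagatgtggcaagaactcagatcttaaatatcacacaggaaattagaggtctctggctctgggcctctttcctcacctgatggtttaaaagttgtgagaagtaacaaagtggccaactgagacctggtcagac

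The Ms4a2 window held 3 GATA sites, at 224, 37 and 11 bases before the start (first base of each). Hdc had 1 at 221 bases and Cpa3 1 at 46 bases before the start, and the Mcpt8 window had none. Of the 7 members with a promoter in the table, 6 held at least 1 GATA site, where 26.6% of the 32807 promoters in the table did. TGCTGA was found in 16.1% of all promoters and in 1 of the 8 windows of the members, a second start site of Il1rl1. An E-box (CANNTG) was found in 66.2%, a CCAAT box (CCAAT) in 33.8% and a TATA box (TATAAA) in 12.4% of all promoters, each on either strand. Of the members with a promoter, all but Ms4a2 held an E-box too. A CCAAT box stood in Fcer1a and Il1rl1, and a TATA box in Cpa3 and Fcer1a. No GATA match in the 4 printed windows overlapped a match to another of these motifs. A GATA site was present in Cpa3 as well as in Hdc and Ms4a2, and a match is a description of letters.

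The transcription factors of the lineage were listed as 12 genes, all measured. Level-adjusted, 1 was past 2-fold lower, 1 past 2-fold higher, and the other 10 were not past it, 1 of them a bound. As deposited 7 were at least 2-fold lower and 0 higher. Beside this, 39.8% of all genes measured were at least 2-fold lower as deposited and 8.97% level-adjusted, and 1.19% and 8.41% were higher. Gata2, which mast cells and basophils need, read 52.3 in wild type against 13.5 in knockout (-1.96 as deposited and -0.84 level-adjusted). A second Gata2 probe set went from 31.8 to 7.92 (-2.004 and -0.97), so both were dimmer beyond the general shift and short of 2-fold level-adjusted. Gata1, which erythroid cells and megakaryocytes also use, went from 56.9 to 30.1 (0.25 level-adjusted). Mitf, a factor of mast cells and melanocytes, was near the floor, with 7.13 and 3.48 (-0.32 level-adjusted). Stat5b, which carries interleukin-3 signals, was the lower gene (15.02 to 3.59, -1.24 level-adjusted), although its other probe set went the other way. Runx1 was at -0.996 (51.3 to 12.0), with 1 of its 5 other measured probe sets the other way. Bhlhe40 was the higher one, from 0.645 (unmeasured) to 6.02, at least 2.15-fold level-adjusted. It passed the floor in knockout alone, so it could only be higher.

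Of 13 genes of immunoglobulin E receptor signalling, Fcer1g included, 11 were measured. Level-adjusted, 2 were at least 2-fold lower, 1 higher (Fcer1g) and 8 within 2-fold, with a median of 0.06. As deposited 6 were lower and 0 higher. Among all genes measured, 39.8% were lower as deposited and 8.97% level-adjusted, and 1.19% and 8.41% were higher. Plcg1, phospholipase C gamma 1, went from 26.7 to 5.63 (-1.30 level-adjusted), with its other measured probe set the other way. Lat, the adaptor that gathers the signalling complex, dropped under the floor (11.9 to 2.73), a level-adjusted difference of at least 2.35-fold. It passed the floor in wild type alone, so it could only be lower. Syk, the kinase that binds the gamma chain, went from 80.1 to 27.4 (-0.38), and 2 of its 3 other measured probe sets went the other way. Fyn was at 0.79 (34.9 to 27.5). Most of these genes are used by many leukocytes.

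Granule proteases of mast cells were near or below the floor, with the exception of Ctsg, which neutrophil precursors share. Of 12 listed, 9 had a probe set, 5 were measured level-adjusted and 0 were past 2-fold on that scale, though 3 of the 5 are bounds. As deposited 4 were measured and 2 were at least 2-fold lower, where 39.8% of all genes measured were. Level-adjusted, 8.97% of all genes measured were lower and 8.41% higher. Ctsg went from 186.7 to 77.1 (-0.09 level-adjusted). The chymase gene Cma1 had 7.31 and 6.29 (0.58). The tryptase gene Tpsb2 read 9.92 against 0.661, lower by at least 2.68-fold as deposited and 1.996-fold level-adjusted, just short of the threshold. Tpsab1, another tryptase, went from 5.07 to 0.736, at least 1.07-fold level-adjusted. Mcpt1, Mcpt2, Mcpt4 and Tpsg1 were below the floor on both arrays.

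Of 10 genes of granule proteoglycan and mediator synthesis, 6 were measured after level adjustment. None of the 6 was past 2-fold, with a median of 0.18, but 1 of them, Ltc4s, is known by a bound only. As deposited, 3 of 5 were at least 2-fold lower, where 39.8% of all genes measured were. Level-adjusted, 8.97% of all genes measured were lower and 8.41% higher. Srgn, the core protein of granule proteoglycans in many blood cells, had 372.5 and 212.1 (0.38 level-adjusted). Alox5ap, which serves leukotriene synthesis, had 261.6 and 145.8 (0.35). Ndst2, a heparin sulfating enzyme, had 12.3 and 5.49 (-0.32). Ltc4s, the leukotriene C4 synthase gene, was at 0.338 and 3.59, below the deposited floor on both arrays, and at least 1.22-fold higher level-adjusted. Slc18a2, Tph1 and Hpgds were below the floor on both arrays too.

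Of 18 other surface receptors of mast cells and basophils, 16 had a probe set and 12 were measured level-adjusted, with 2 lower, 1 higher and a median of 0.00. The other 9 were not past 2-fold, and 2 of these are known by a bound only. As deposited, 4 of 13 were at least 2-fold lower and 0 higher. Of all genes measured, 39.8% were lower as deposited and 8.97% level-adjusted, and 1.19% and 8.41% were higher. Kit, the stem cell factor receptor on which mast cells depend and which progenitors carry too, went from 16.9 to 3.29 (at least 4.56-fold lower as deposited, -1.52 level-adjusted), and its second probe set from 7.57 to 1.53, both below the deposited floor in knockout. Cd69, an early activation antigen of many leukocytes, went from 16.3 to 1.01, at least 3.09-fold lower level-adjusted. Cd69, 1 of the 2 lower genes, passed the floor in wild type alone, so it could only be lower. Csf2rb2, a receptor chain for interleukin-3, had 8.84 and 9.54 (1.01). Il5ra had 10.1 and 8.68 (0.69). Cd200r3, a basophil and mast cell receptor, and Ccr3, the eotaxin receptor, were below the floor on both arrays.

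Further lists were small or dim. Beside them, 39.8% of all genes measured were at least 2-fold lower as deposited and 8.97% level-adjusted, and 1.19% and 8.41% were higher. Of 6 eosinophil granule genes, 2 had a probe set: Epx, eosinophil peroxidase, at 11.1 and 8.62 (0.56 level-adjusted), and Prg3, a homologue of Prg2, which went from 9.80 to 1.05, at least 1.97-fold lower level-adjusted. Neither passed 2-fold on that scale, and 1 of the 2 did as deposited. Of 9 type 2 and basophil cytokine genes, 6 were measured level-adjusted, with 1 lower and 0 higher. The lower one was Csf1 (16.97 to 1.28, at least 3.21-fold), with its other probe set the other way. Csf1 passed the floor in wild type alone, so it could only be lower. Il4, Il5 and Il13 were below the deposited floor on both arrays. Ccl3 was at 0.86, Ccl4 at 0.55 and Il6 read 5.77 against 2.69, under the floor in knockout.

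**Figure D4:**
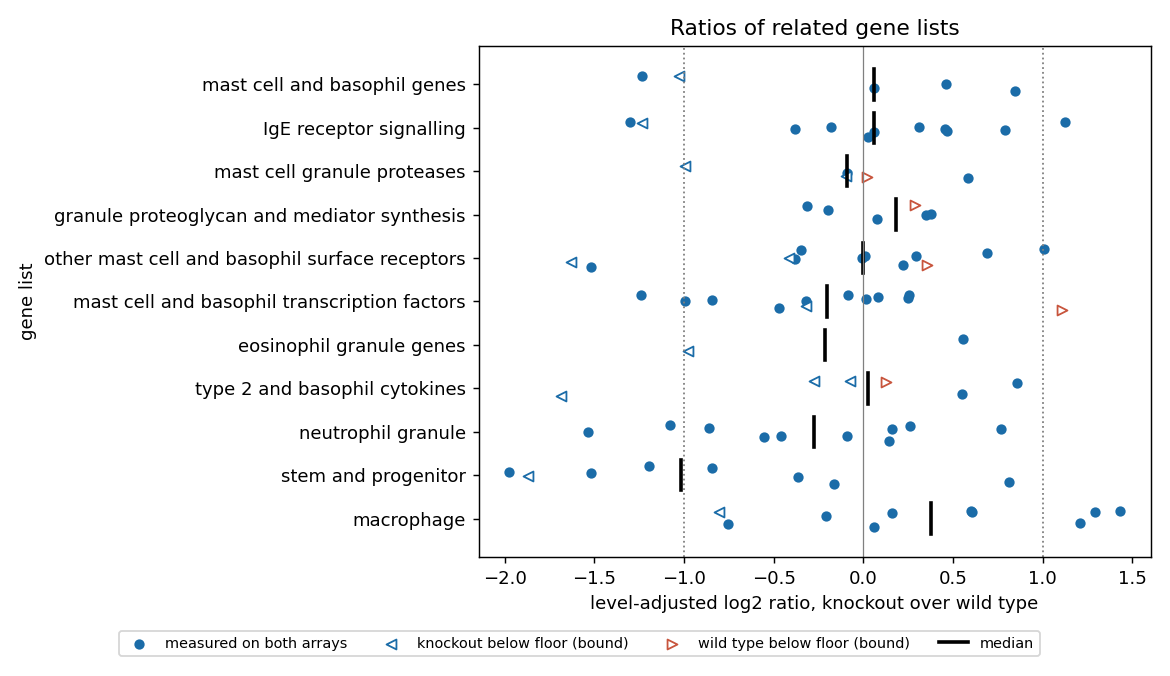
Level-adjusted log2 ratio of knockout over wild type for the measured genes of 11 lists, 1 point a gene; open triangles are genes below the floor on 1 array, whose ratio is a bound, black bars are medians and dotted lines mark 2-fold. Medians lay between -0.27 and 0.38, except that of the stem and progenitor list at -1.02.

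Markers of other cells were read on the same arrays. Among all genes measured, 39.8% were at least 2-fold lower as deposited and 8.97% level-adjusted, and 1.19% and 8.41% were higher. Of 10 neutrophil granule genes, all measured, 2 were at least 2-fold lower level-adjusted and 0 higher, 7 were lower as deposited, and their deposited signals summed to 15129 in wild type against 8743 in knockout. Of 8 measured stem and progenitor genes, Kit and Gata2 among them, 4 were lower level-adjusted and 7 as deposited, with summed signals of 568 and 96.9, of which Myb alone gave 381 and 43.5. Of 10 macrophage genes 0 were lower and 3 higher level-adjusted, but 3 lower and 0 higher as deposited, with sums of 778 and 362, of which Csf1r alone gave 625 and 248, and Itgam, the gene of the sort marker Mac-1, was near the floor (5.76 and 3.94). Of 7 erythroid genes 0 were lower and 1 higher level-adjusted, and 3 lower and 0 higher as deposited (sums 8378 and 5314). Of 5 megakaryocyte genes 1 was lower and 0 higher on both scales (163 and 92.95). The lower one, Gp9, was below the floor in knockout (15.3 to 0.268), so it could only be lower. Of 6 measured hepatoblast genes 6 were higher level-adjusted and 3 as deposited, with 0 lower on either scale (333 and 534). Ahsg, 1 of the 6, was below the floor in wild type (3.16 to 6.00), so it could only be higher. In the neutrophil, progenitor and macrophage lists, Kit, Flt3, Vsig4 and Timd4 were below the deposited floor in knockout. As deposited, these genes could therefore only be lower, and so could Flt3 and Vsig4 level-adjusted. Timd4 was dim in wild type too (5.23) and at 0.06 level-adjusted. The part of these other cell types in the lower Hdc and Ms4a2 signals was not tested.

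Markers of the lineage were thus present in part. Among the members, Hdc, Prg2, Mcpt8 and Cpa3 were measured on both arrays, Ms4a2 in wild type alone and Fcer1a on neither. Of the 9 mast cell proteases with a probe set, 4 reached the deposited floor: Ctsg and Cma1 on both arrays, Tpsb2 and Tpsab1 in wild type alone. The values are therefore those of the named genes, in a sort in which no cell type of this lineage was selected.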

How the data were processed

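Total RNA of sorted fetal liver cells was hybridised, biotin-labelled, to 2 Affymetrix arrays, 1 per genotype, per the labels' protocols. The authors deposited a linear intensity for each probe set; the summary and scaling steps were not given in the sources used here. Probe sets were named by the platform annotation, updated through Entrez identifiers to GRCm38.p6, and those with several symbols were not used. The probe set with the highest mean signal stood for its gene. Values were floored at the 50th percentile of both arrays (3.70), and log2 ratios were taken as deposited and after quantile normalization on the log2 scale without the 64 control probe sets. The 5 equal bins of genes were cut by geometric mean signal. Calls were at 2-fold. The depth of an array is its signal over background, and detection calls were not used. Quantile normalization was run on simulated data with a uniform dimming and changes in bright probe sets only. The median ratio of these arrays differed between signal bins, so that run does not cover them or genes near the floor. The members, and the gene lists, motifs and rule for named genes (all members; of each related list up to 4 genes with the largest level-adjusted ratio, and Maf, Fcer1g, Syk, Kit, Gata1, Gata2 and Mitf), were chosen with earlier results of these data known; other genes below the floor, and Itgam, were named after their values were seen. For lists of other cell types counts and sums are given. Values are added for Myb and Csf1r, which gave the largest part of their sums, and for the sort markers Itgam and Adgre1. Values are also given for Cd68, Fcgr1, Siglec1, Timd4, Gp9 and Ahsg. These genes, too, were named after their values were seen. Scripts used Python 3.11.15, numpy 2.4.6 and pandas 2.3.3.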

Additional observations from a re-analysis of the deposited data

How the results depend on the processing

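The number of measured genes at least 2-fold lower was 3 as deposited; it was 1 with ratios centred on the median gene (Hdc alone), 1 at 3-fold and 1 at 4-fold, and 2 or 3 under the other alternatives. The number at least 2-fold higher was 0 in every setting. The median log2 ratio of -1.10 became -0.17 with centred ratios and 0.06 after quantile normalization, where it reversed. Cpa3 reversed from -0.34 to 0.32 with equal medians, 0.59 with centred ratios and 0.46 after quantile normalization. Mcpt8 reversed from -0.22 to 0.45, 0.71 and 0.85 in the same order. Prg2 was -1.10 as deposited, -0.43 with equal medians, -0.17 centred and 0.06 after quantile normalization, where it reversed. Ms4a2 was at -3.35 with the floor at the 25th percentile, -0.74 at the 65th and -0.53 with centred ratios, the last 2 short of 2-fold; its mean over probe sets was -0.998, also short of it. These moves follow from the construction of each scale or floor, since the same signals enter each. Without suffixed probe sets Hdc had no value. No replicate could be left out and no paired analysis was possible because each genotype had 1 array. Signals near the floor (Cpa3, Ms4a2, Tpsb2) carry little information on size.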
